A study of Mus musculus with 2 samples.

Results

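The preadipocyte commitment factors described here are 10 transcription factor genes: Ebf1, Ebf2, Ebf3, Zfp423, Zfp467, Gata2, Gata6, Runx1, Runx2 and Sox9. Members were taken as every probe set whose single gene symbol in the array's annotation is one of these names, without regard to signal. This gave 29 probe sets of 9 genes, out of 45101 probe sets on the array and 18193 genes with a probe set of their own. No probe set was assigned to Runx2 alone in the annotation used here, so no signal is given for Runx2, which enters only through its promoter window.

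A preadipocyte is a mesenchymal cell that has been restricted to the fat lineage but has not yet filled with lipid, and these factors act around that restriction. The early B-cell factors (Ebf genes) bind DNA as dimers and favour the adipocyte fate, and the zinc finger protein Zfp423 marks committed precursors and raises Pparg, the master regulator of fat cells. Gata2 holds preadipocytes back from differentiation, while Runx2 and Sox9 direct the same mesenchymal precursors towards bone and cartilage.

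The cells were 3T3-L1, an established line of mouse embryonic fibroblast origin that turns into fat cells after hormonal induction. They stood in DMEM with 25 mM glucose and 10% FBS. One culture received control siRNA (siGL3, directed at luciferase) and the other an siRNA specific for Phf21a, the gene of BHC80, a protein of the LSD1 and CoREST corepressor complex that reads histone tails. Both were induced 24 h later with insulin, dexamethasone and 3-isobutyl-1-methylxanthine and were harvested after a further 24 h, so both groups are differentiating cells at an early stage and neither is an uninduced preadipocyte. The sources used here do not give the sequence of the siRNA. Total RNA was read on Affymetrix arrays, 1 array per group (n = 1), so there is no replicate error and no test was run.

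Each value is a MAS5 signal, a linear intensity in arbitrary units. A log2 ratio is the Phf21a siRNA array over the control array, and "lower" and "higher" refer to the Phf21a siRNA array throughout. Detection required a signal of at least 51.3, the median of all signals, on 1 of the arrays or both. The number after ± is a local spread: the log2 ratios of the 1000 detected probe sets of most similar signal were ordered, and the interval holding their central 68% was divided by 2. It describes these 2 arrays, includes any true differences, and does not measure the spread between cultures. Signals of different probe sets are not compared with each other, since probes differ in how strongly they bind. Exceptions are the choice of a gene's brightest probe set and the summed marker signals.

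The targeted gene was lower. Phf21a gave signals of 768 and 306 on its brightest probe set (log2 ratio -1.33 ± 0.52). All 3 of its detected probe sets were lower, as held for 29.1% of genes with exactly 3. A further probe set was undetected at 39.2 and 43.8. All 10 preadipocyte and fibroblast markers were detected, among them Pdgfra (2208 and 1973) and Dlk1. Of the adipocyte markers Fabp4 and Lpl were bright, whereas Adipoq was undetected at 12.5 and 26.5. None of 6 endothelial markers was detected, and of 7 leukocyte markers 3 were detected (Csf1r, Lyz2 and Laptm5) and the defining gene Ptprc was not, at 6.87 and 12.2.

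Among the 9 measured genes 8 were detected, through 22 of the 29 probe sets, and 18 probe sets reached the limit on both arrays. Taken by its brightest probe set, 3 of the 8 detected genes were at least 1.5-fold lower (Ebf2, Gata2 and Zfp423), against 13.9% of all 11301 detected genes. Zfp423 reached the limit on the control array only. With signals raised to the limit 2 of the 8 genes were at least 1.5-fold lower, against 11.3% of all detected genes. Higher by at least 1.5-fold were 0 of the 8 genes, where the share over all detected genes was 15.2%. None reached 2-fold in either direction, where 5.47% of all detected genes were lower and 5.72% higher. Of the 8 genes 5 had a ratio under 0, as did 47.8% of all detected genes. The median log2 ratio was -0.28 over the 8 genes and 0.03 over all detected genes. With a single array per group these figures are a description, and no difference from other genes was tested. In a bulk sample, fewer cells of a type and less RNA per cell cannot be told apart.

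**Figure D1:**
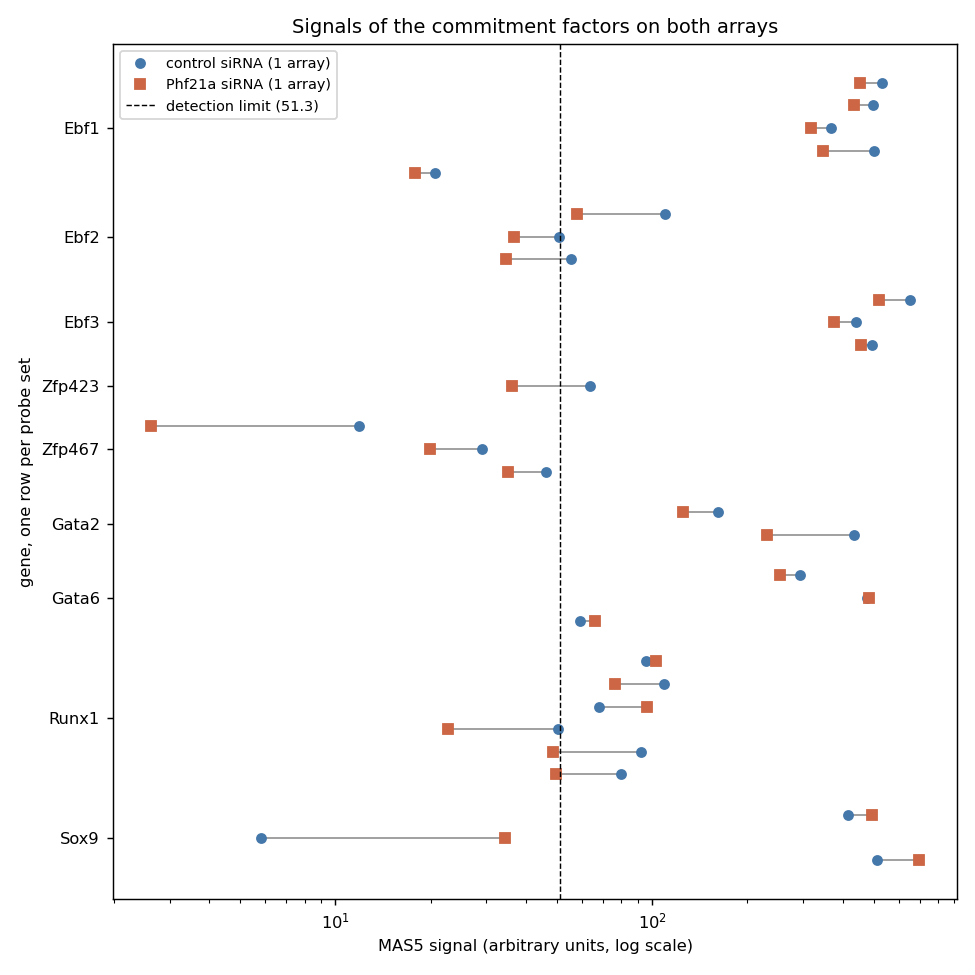
MAS5 signal (log axis, arbitrary units) of all 29 probe sets of the commitment factors, 1 row per probe set, with control siRNA (circles) and with Phf21a siRNA (squares); the dashed line is the detection limit of 51.3. All 11 rows of Ebf1, Ebf2 and Ebf3 have the square to the left of the circle, and all 3 rows of Sox9 have it to the right.

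The Ebf genes were lower in every probe set. Of their 11 probe sets 9 were detected, and the 9 log2 ratios lay between -0.93 and -0.11 with a median of -0.23. Among all detected probe sets 50.4% had a ratio under 0. A probe set of Ebf2 among the 9 passed the limit through the control array alone, which built in its lower ratio. The members' probe sets are not separate observations, since they were read from the same RNA and several were designed on the same target sequence. The 22 detected probe sets of the members go back to 14 target sequences.

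Ebf1 (Entrez gene 13591), the first described member of the family and a factor of both B cells and fat cells, was slightly lower. The brightest of its probe sets gave 532 with control siRNA and 453 with Phf21a siRNA, a log2 ratio of -0.23 ± 0.52. The others gave 497 and 434 (-0.19), 368 and 317 (-0.21), and 501 and 346 (-0.53 ± 0.53). All 4 detected probe sets were lower, as held for 22.5% of the 601 genes with exactly 4 detected probe sets. Of these 4, 3 share a target sequence, and the remaining probe set was undetected at 20.7 and 17.8. No Ebf1 probe set reached 1.5-fold, and the ratios were similar across a narrow range except for the probe set at -0.53.

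Ebf3 (Entrez gene 13593), a close relative better known from neurons, was likewise slightly lower. Its signals were 652 and 519 on the brightest probe set (-0.33 ± 0.53), 440 and 376 on the next (-0.23 ± 0.54), and 495 and 458 on the last (-0.11 ± 0.52). All 3 probe sets were detected on both arrays and all 3 were lower, which held for 29.1% of the 1497 genes with exactly 3. Each ratio was smaller than its local spread.

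Promoter windows of the 2 genes are shown because both were lower on every detected probe set. They come from RefSeq (GRCm38.p6) and run from 250 bases before to 50 bases after an annotated start, 5′ to 3′ on the gene's strand. Both strands of each window were searched for 3 motifs, and matches are in capitals. The Ebf motif TCCCNNGGGA was held by 0.904% of all 32851 promoter windows of this length. The Runx motif, written TGTGGT, was held by 16.8% of the same windows. The Gata motif, for which the core with its usual flanking letters was taken as AGATAA, was held by 11.2% of them. Windows of 7 of the 10 members were used, 11 windows in all. Of these 11, 3 held the Runx motif, and 0 held the Ebf or Gata motif. No match overlapped another.
Ebf1, upstream start, chr11:44617850-44618149, + strand: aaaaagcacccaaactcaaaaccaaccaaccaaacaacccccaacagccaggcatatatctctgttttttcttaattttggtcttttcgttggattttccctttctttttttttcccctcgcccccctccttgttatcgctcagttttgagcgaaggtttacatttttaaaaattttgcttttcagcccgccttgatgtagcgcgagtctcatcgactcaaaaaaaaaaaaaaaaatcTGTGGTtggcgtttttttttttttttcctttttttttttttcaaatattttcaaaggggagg
Ebf3, chr7:137314396-137314695, - strand: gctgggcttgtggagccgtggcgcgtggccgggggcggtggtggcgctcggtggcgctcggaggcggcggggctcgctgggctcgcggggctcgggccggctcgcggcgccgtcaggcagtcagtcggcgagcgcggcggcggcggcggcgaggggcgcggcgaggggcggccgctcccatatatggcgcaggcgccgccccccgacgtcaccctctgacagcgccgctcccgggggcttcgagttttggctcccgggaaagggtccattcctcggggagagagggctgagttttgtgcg
The upstream Ebf1 window has 1 match, TGTGGT at bases 239 to 244, just before the start site. It has 9 CpG dinucleotides and 36.7% G and C. A window at a second Ebf1 start (chr11:44619978-44620277), not shown, has 17 and 53.0% and 0 matches. The Ebf3 window has 46 and 77.0%, where the median over all windows is 7 and 52.7%. A match describes letters in the window and does not show that a factor binds there.

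Ebf2 (Entrez gene 13592), which marks brown and beige fat precursors, had the ratio furthest from 0 among the members' brightest probe sets. That probe set gave 110 with control siRNA and 58.0 with Phf21a siRNA, a log2 ratio of -0.93 ± 0.63 or 1.90-fold lower, with both signals at or above the limit. A second probe set reached the limit on the control array only, at 55.4 and 34.6 (-0.68 ± 1.12), and was at -0.11 with both signals raised to the limit. The last was undetected at 51.0 and 36.7. All 3 were lower and were designed on a single target sequence. Both detected probe sets were lower in 36.0% of genes with exactly 2 detected. The second passed the limit through the control array alone, so a lower ratio was built into its passing. The gene was dim, and scatter is wide there: among the 1000 probe sets nearest in signal to the brightest one, 19.7% were at least 1.5-fold lower, and for the second probe set 45.9%.

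**Figure D2:**
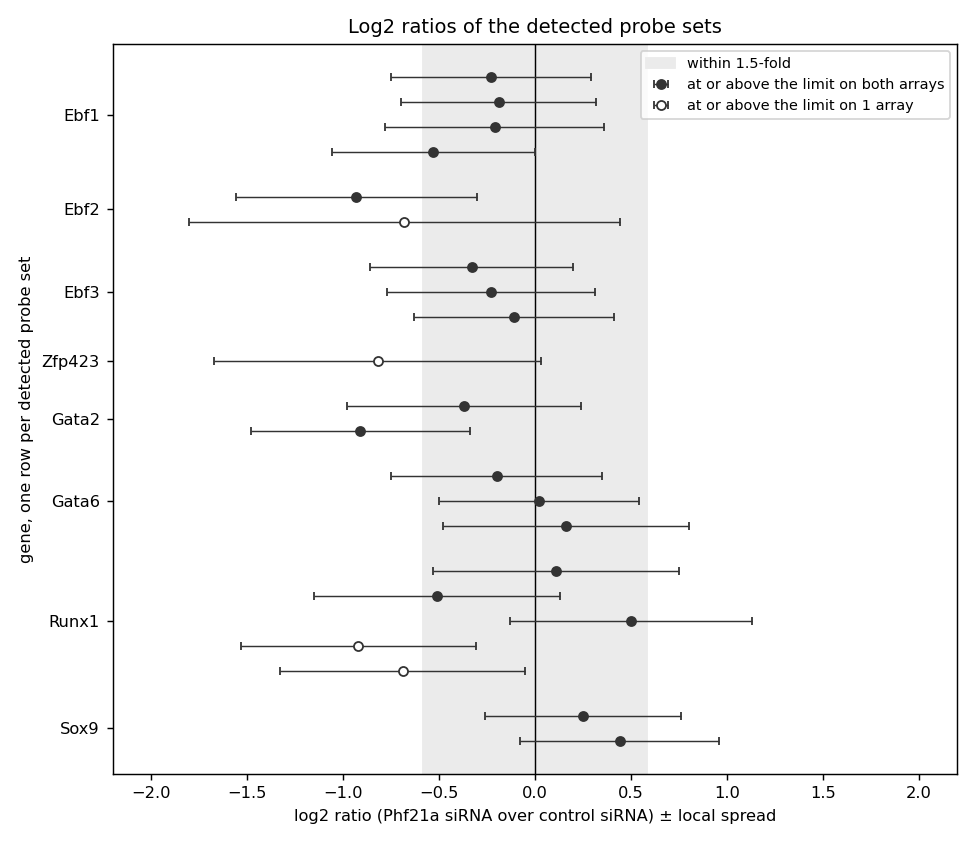
Log2 ratio (Phf21a siRNA over control siRNA) of the 22 detected probe sets; bars are the local spread and not a replicate error, filled points reached the detection limit on both arrays, open points on 1, and the grey band marks ratios within 1.5-fold. All points of the Ebf genes, Zfp423 and Gata2 lie below 0, both points of Sox9 lie above, and the 5 points of Runx1 spread from -0.92 to 0.50.

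The zinc finger factors were at the edge of detection. Zfp423 (Entrez gene 94187), a cofactor of BMP signalling and a partner of Ebf1, had a single probe set with signals of 63.7 and 36.1. The log2 ratio was -0.82 ± 0.85, less than its local spread, and 31.1% of probe sets of like signal were at least 1.5-fold lower. Zfp423 passed the detection limit through the control array alone, so a lower ratio was built into its passing, and with both signals raised to the limit the ratio was -0.31. Zfp467 (Entrez gene 68910), which promotes the fat over the bone fate in marrow stroma, was undetected on all 3 probe sets. Its signals were 46.3 and 35.2, 29.0 and 19.9, and 11.9 and 2.62, each lower on the Phf21a siRNA array and each under the limit on both arrays.

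The upstream window of Zfp423 is shown beside its values because the gene is a widely used mark of commitment.
Zfp423, upstream start, chr8:87959546-87959845, - strand: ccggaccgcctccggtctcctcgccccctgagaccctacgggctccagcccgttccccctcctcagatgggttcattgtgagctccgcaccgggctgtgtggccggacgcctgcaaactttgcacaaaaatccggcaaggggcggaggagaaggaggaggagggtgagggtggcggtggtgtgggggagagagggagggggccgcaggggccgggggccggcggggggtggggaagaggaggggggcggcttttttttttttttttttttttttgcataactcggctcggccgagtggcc
It has 21 CpG dinucleotides and 65.7% G and C, and none of the 3 motifs was found in it.

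The Gata genes differed in their ratios. Gata2 (Entrez gene 14461), which represses Pparg and is normally lost as fat cells form, was 1.89-fold lower on its brightest probe set, from 433 to 230 (log2 ratio -0.91 ± 0.57). The other probe set was lower by less, from 161 to 125 (-0.37 ± 0.61), within its local spread. Both signals of both probe sets reached the limit, and the 2 probe sets were designed on different target sequences. Both probe sets were lower in 36.0% of the 3079 genes with exactly 2 detected. Among the 1000 probe sets nearest in signal to the brightest one, 16.7% were at least 1.5-fold lower.

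The window around the upstream Gata2 start is given because this member combined a ratio beyond its local spread with a signal well over the limit on both arrays.
Gata2, upstream start, chr6:88193641-88193940, + strand: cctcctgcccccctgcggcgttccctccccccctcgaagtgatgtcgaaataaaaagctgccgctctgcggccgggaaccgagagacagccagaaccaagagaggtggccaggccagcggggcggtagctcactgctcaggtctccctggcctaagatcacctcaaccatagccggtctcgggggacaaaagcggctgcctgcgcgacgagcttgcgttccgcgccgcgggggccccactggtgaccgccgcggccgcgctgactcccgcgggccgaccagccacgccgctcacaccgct
It has 32 CpG dinucleotides and 69.3% G and C, and none of the 3 motifs was found in it.

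Gata6 (Entrez gene 14465), a factor of endoderm, heart and mesenchyme, was nearly level. Its signals were 478 and 484 on the brightest probe set (0.02 ± 0.52), 292 and 254 on the next (-0.20 ± 0.55), and 59.0 and 65.8 on the dim one (0.16 ± 0.64). Ratios of both signs across 3 detected probe sets occurred in 44.4% of genes with exactly 3. The difference between Gata2 and Gata6 was not tested.

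Runx1 (Entrez gene 12394), the blood stem cell factor that mesenchymal precursors also express, gave no single direction. Its brightest probe set had signals of 95.5 and 103 (0.11 ± 0.64), and another on the same target sequence had 109 and 76.4 (-0.51 ± 0.64). A pair on a second target sequence was lower together, at 92.0 and 48.7 (-0.92 ± 0.61) and at 79.8 and 49.6 (-0.69 ± 0.64), where the Phf21a siRNA signals were under the limit. The pair passed the limit through the control array alone, so a lower ratio was built into its passing. A probe set on yet another target sequence was higher, at 67.8 and 96.0 (0.50 ± 0.63). The last was undetected at 50.5 and 22.7. With 5 detected probe sets, ratios of both signs were common: 67.5% of the 255 genes with exactly 5 showed them.

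Runx1 is transcribed from a distal and a proximal promoter, and both windows are shown because its probe sets disagree. Which transcripts each probe set reads was not analysed here.
Runx1, upstream start, chr16:92826025-92826324, - strand: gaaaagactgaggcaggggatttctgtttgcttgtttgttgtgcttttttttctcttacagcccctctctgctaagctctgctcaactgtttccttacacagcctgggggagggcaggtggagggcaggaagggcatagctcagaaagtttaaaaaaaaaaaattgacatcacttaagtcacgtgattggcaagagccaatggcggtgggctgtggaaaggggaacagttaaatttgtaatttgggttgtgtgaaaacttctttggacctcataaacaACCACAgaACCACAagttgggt
Runx1, downstream start, chr16:92697280-92697579, - strand: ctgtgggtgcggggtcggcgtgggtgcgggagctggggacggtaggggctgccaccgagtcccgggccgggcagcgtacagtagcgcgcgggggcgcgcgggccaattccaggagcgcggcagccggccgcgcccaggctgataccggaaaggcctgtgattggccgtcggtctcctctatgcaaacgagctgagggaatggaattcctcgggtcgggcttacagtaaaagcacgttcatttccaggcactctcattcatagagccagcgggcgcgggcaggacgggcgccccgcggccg
The upstream window holds 2 Runx motifs on the opposite strand, read as ACCACA at bases 279 to 284 and 287 to 292, after the start site. The downstream window holds 0. The upstream window has 2 CpG dinucleotides and 45.0% G and C, and the downstream one has 35 and 69.0%. The listed Runx2 window (chr17:44814578-44814877) has 3 Runx motifs, of which 2 lie at bases 274 to 279 and 282 to 287, also after the start.

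Sox9 (Entrez gene 20682), the cartilage factor that also restrains preadipocytes from differentiating, was the member with the highest ratio on its brightest probe set. That probe set had 513 with control siRNA and 696 with Phf21a siRNA (log2 ratio 0.44 ± 0.52, 1.35-fold). Another on the same target sequence had 416 and 495 (0.25 ± 0.51). Both were higher, as in 35.7% of genes with exactly 2 detected probe sets, and both ratios were smaller than their local spread. The last probe set was undetected at 5.81 and 34.2. Scaled to the poly-A control RNAs, Sox9 was at -0.29, in a setting that moved the median of all genes to -0.70.

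**Figure D3:**
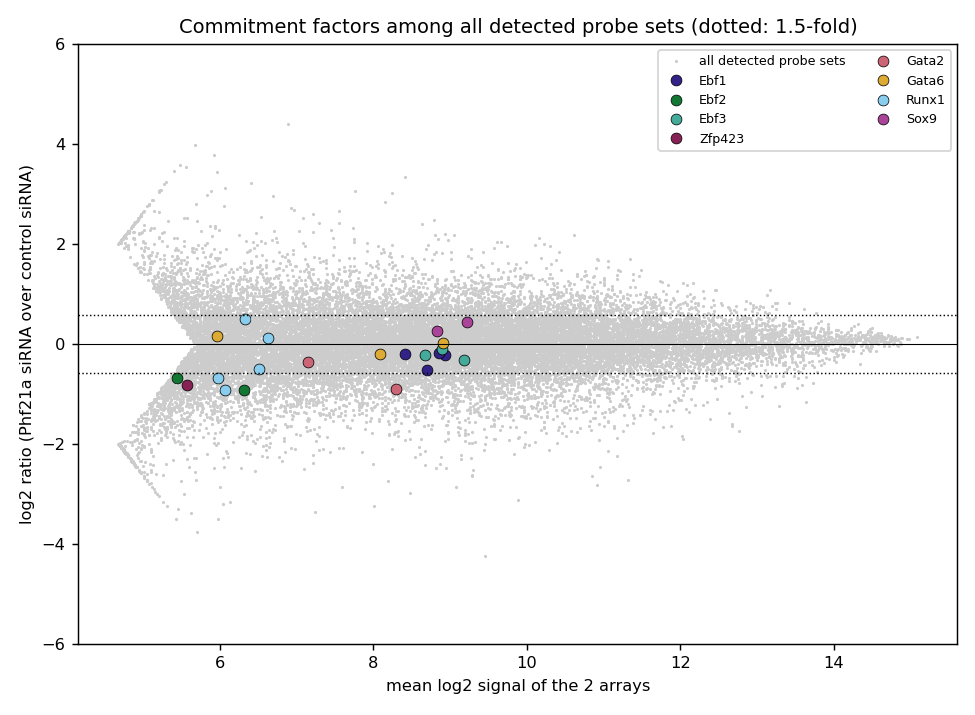
Log2 ratio against mean log2 signal for all 23901 detected probe sets (grey) and the 22 detected probe sets of the commitment factors (coloured by gene); dotted lines mark 1.5-fold. The cloud widens to the left, where Ebf2, Zfp423 and Runx1 lie, and the members sit inside it.

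The members' probe sets were also set beside all detected probe sets, without a test. Of the 22 detected probe sets 16 (72.7%) were lower, against 50.4% of all detected probe sets. At least 1.5-fold lower were 6 (27.3%), against 16.3% of all. Higher by at least 1.5-fold were 0, where the share over all was 14.2%. A ratio beyond the probe set's own local spread was found for 5 (22.7%), against 32.4% of all. These 5 were the brightest probe set of Ebf2, the brightest of Gata2, 1 of Ebf1 and 2 of Runx1, and all were lower. Of the 6 at least 1.5-fold lower, 4 reached the limit through the control array alone, namely those of Zfp423, the second of Ebf2 and the 2 of Runx1. For these 4, which are also among the 16, a lower ratio was built into their passing.

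Directions were checked under other scalings of the arrays. Median centring, quantile and loess scaling left the median of all genes at 0.03 or moved it to 0.00 by construction, whereas scaling to poly-A controls put it at -0.70 and scaling to hybridisation controls at -0.20. Ebf1, Ebf2, Ebf3, Zfp423 and Gata2 were under 0 in every alternative that gave them a value, and also under the median of all genes in each. Every alternative reuses the same arrays, so a kept sign is not a repeated measurement. Gata6 and Runx1 had no stable sign: over the alternatives Gata6 ranged from -0.71 to 0.02 and Runx1 from -0.61 to 0.17. Sox9 turned under poly-A scaling alone, and it stayed 0.35 to 0.44 above the median of all genes in all 12.

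Partners of these factors were taken from 8 lists of related genes, 114 of 120 of which had a probe set of their own. The counts past 1.5-fold in each list stand beside 15.2% of all detected genes higher and 13.9% lower by that much. Among 10 detected partners of Ebf and Zfp423 and carriers of BMP signals, 3 exceeded 1.5-fold upwards and 3 downwards, around a median log2 ratio of 0.26. Ccn5, the secreted protein also called Wisp2 that holds Zfp423 in the cytoplasm, was 2.0-fold higher, from 509 to 1020 (1.00 ± 0.53, 1 probe set). Smad5, a transducer of BMP signals, was lower, from 786 to 356 (-1.14 ± 0.50), and its other probe sets were at -0.92 and -0.11. Smad9, another transducer, had 25.9, under the limit, and 132. Counting from the limit instead of 25.9 gave a ratio of 1.37. Zfp521, a paralogue that opposes Zfp423 and Ebf1, was picked after its values were seen. Its probe sets were at 600 and 833 (0.47 ± 0.52) and at 117 and 191 (0.71 ± 0.61). Both were higher, as in 35.7% of genes with exactly 2 detected probe sets, and the ratio of 0.47 was smaller than its local spread. Ebf4 (20.3 and 9.56) and Prdm16, the brown fat regulator (39.8 and 19.4), were undetected.

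The Gata family and its cofactors held 5 detected genes of 11, none past 1.5-fold in either direction, with a median of -0.04. Gata1, Gata3, Gata4 and Gata5 were undetected, which leaves Gata2 and Gata6 as the detected ones among Gata1 to Gata6. The genes furthest from 0 by their brightest probe set were Trps1, Lmo4 and Zfpm1. Trps1, an atypical repressive Gata factor, was at 827 and 632 on its brightest probe set (-0.39 ± 0.53), and its others were at -0.61, 0.11 and 0.27. Lmo4, a LIM adaptor, was at 1701 and 1297 (-0.39 ± 0.48). Zfpm1, the Gata cofactor FOG1, was at 316 and 346 (0.13 ± 0.55), with its second probe set at -0.42, so probe sets of Trps1 and of Zfpm1 disagreed in direction.

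All 15 genes of the Runx family and its cofactors were detected. Past 1.5-fold were 2 that were higher and 3 that were lower, and the median was 0.24. Wwtr1, the coactivator TAZ that binds Runx2 and represses Pparg, was at 2010 and 1046 on its brightest probe set (-0.94 ± 0.47), while the others gave 0.46 and 0.17. Runx3 (7.82 and 55.8) and the corepressor Cbfa2t3 (51.6 and 18.3) were each close to the limit on 1 array and under it on the other, and at 0.12 and -0.01 with signals raised to it. Cbfb, the shared partner that all Runx proteins need to bind DNA stably and that was picked after its value was seen, was 1.57-fold higher (6259 to 9826, 0.65 ± 0.29). Of 5 detected Sox genes 1 was higher and 2 lower (median -0.08). Sox12 was at 569 and 284 (-1.0 ± 0.55, second probe set -0.17) and Sox11 at 78.6 and 133 (0.76 ± 0.64, other detected probe sets 0.59, 0.52 and -0.31). The dim Sox10 was at 63.2 and 25.5 (-1.31 ± 1.48), with the second signal under the limit. With signals raised to the limit Sox10 was at -0.30.

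Genes of bone and cartilage that Runx2 and Sox9 drive were mostly undetected, 6 of 18 being detected. Past 1.5-fold were 0 upwards and 2 downwards, and the median was -0.58, with Col1a1 and the dim collagen gene Col11a2 (64.6 and 43.2) as the middle genes. Sp7, the osteoblast factor osterix, had 109 and 48.1 (-1.17 ± 0.61), Col9a1, a cartilage collagen, 86.9 and 44.9 (-0.95 ± 0.64), and Col1a1, the main collagen of bone and of fibroblasts, 4274 and 2867 (-0.58 ± 0.41, second probe set -0.46). For Sp7, Col9a1 and Col11a2 the second signal was under the limit, so a lower ratio was built into their passing. With signals raised to the limit these genes were at -1.08, -0.76 and -0.33. The remaining detected genes were higher: Phex, an osteoblast and osteocyte peptidase, at 203 and 262 (0.37 ± 0.57), and Col11a1, a cartilage collagen, at 118 and 164 (0.48 ± 0.61). The cartilage collagen Col2a1 (4.19 and 6.21) and Ibsp, bone sialoprotein (21.8 and 25.8), were undetected.

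Of 8 detected adipocyte genes, 3 exceeded 1.5-fold upwards and 1 downwards (median 0.30). Fabp4 was at 3502 and 5849 (0.74 ± 0.36, second probe set 0.61). Retn (9.82 and 70.9) and Slc2a4 (70.8 and 8.99) were each near the limit on 1 array only, at 0.47 and -0.47 with signals raised to it. The other gene past 1.5-fold upwards was Pparg, at 512 and 814 (0.67 ± 0.52, 1 probe set). Of 10 detected precursor markers 1 was higher and 2 lower (median -0.13). Dlk1, which keeps preadipocytes undifferentiated and raises Sox9 in that state, was at 12290 and 5940 (-1.05 ± 0.28) with a second probe set at -1.78. The integrin Itgb1 was at 4869 and 2939 (-0.73 ± 0.40, other detected probe sets -0.60 and -2.23), and Pdgfrb, the receptor on perivascular precursors that express Zfp423, at 2092 and 3743 (0.84 ± 0.42, second probe set 0.13).

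Other factors of mesenchymal precursors had 15 detected genes, of which 1 exceeded 1.5-fold upwards and 4 downwards, around a median of -0.13. Klf2, a repressor of Pparg, was at 178 and 456 (1.35 ± 0.56). Msx1, a homeobox gene of undifferentiated mesenchyme, was at 182 and 92.0 (-0.98 ± 0.60, second probe set -0.17), and Tbx18, a T-box gene of mural precursors, at 1072 and 628 (-0.77 ± 0.50, second probe set -0.36).

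**Figure D4:**
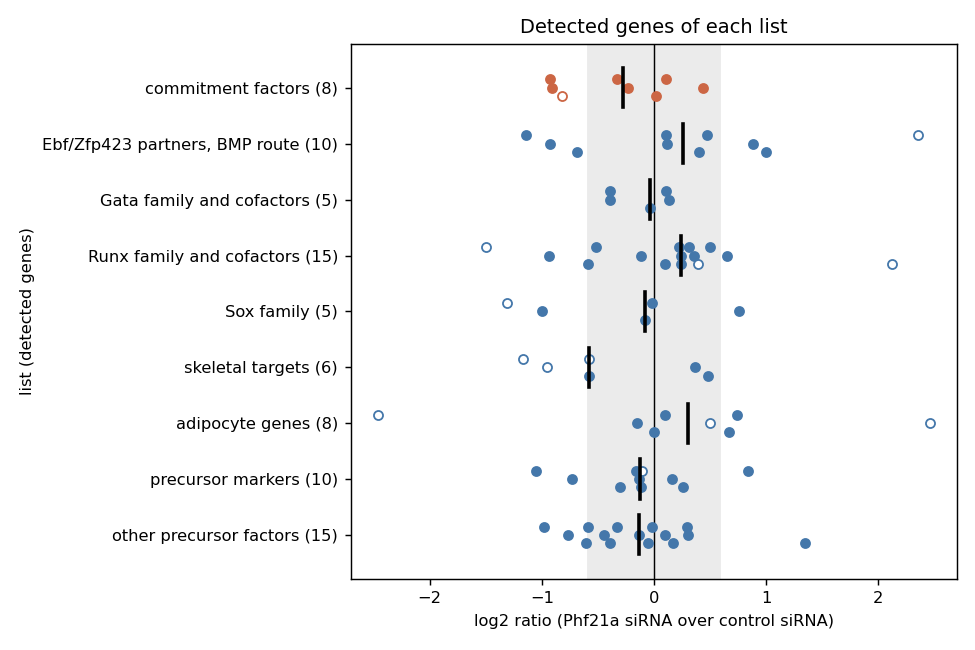
Log2 ratio (Phf21a siRNA over control siRNA) of every detected gene of the commitment factors (top row) and of 8 lists of related genes, each gene by its brightest probe set; black bars are medians, open points reached the detection limit on 1 array, the grey band marks ratios within 1.5-fold, and the number of detected genes stands after each name. The 8 commitment factors lie between -0.93 and 0.44 around a median of -0.28.

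Markers of other cell types were read beside the members. Each sum adds the highest signal of every marker gene on that array, undetected genes included. The sums of the 2 arrays can therefore draw on different probe sets. The summed signal of the leukocyte markers was 348 with control siRNA and 578 with Phf21a siRNA. Without Csf1r (200 and 452, its detected probe sets from 0.18 to 1.18) the sums were 148 and 126. The other detected ones, Lyz2 (53.6 and 71.9) and Laptm5 (66.4 and 22.3), differed in direction. Osteoblast markers summed to 401 and 361 with 2 of 5 detected, namely Sp7, which was lower, and Phex, which was higher. Chondrocyte markers summed to 142 and 89 with 1 of 6 detected, Col9a1. Muscle markers summed to 317 and 220 with 3 of 6 detected, Acta1 (121 and 69.4), Des (94.2 and 76.9) and Ckm (55.5 and 22.5), while the defining Myod1 and Myog were undetected. Neuronal markers summed to 288 and 178 with 1 of 6 detected, Tubb3 (171 and 84.5). Endothelial markers summed to 92 and 70 with none detected. Their part in the ratios of Runx1, Sox9 and the other members was not tested.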

How the data were processed

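RNA of 2 cultures of 3T3-L1 cells was hybridised to 1 array each. The deposited values are linear signal intensities per probe set, which the authors computed with MAS5, per the submitters' processing notes (version not given in the sources used here). The mean signal, trimmed of 2% of probe sets at each end, was 500 on each array, so total signal was made equal and a change in RNA per cell cannot be seen. MAS5 leaves low signals noisy, and its detection calls were not used here.

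Of the 45101 probe sets 34945 had 1 gene symbol, 932 several and 9160 none, and 64 were controls. Signals were raised to 12.9 (the 25th percentile) before log2 was taken, and no fold is given where a signal lay under it. Each gene was read from its detected probe set of highest mean signal, passing over those ending in _x_at where another existed. With n = 1 per group no test was possible, and differences are given by size (1.5-fold) beside the share of all detected genes of that size.

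The members and the lists were chosen with earlier results of these data known. Named were all members, Phf21a, the 3 genes furthest from 0 in each related list, and the markers. Also named were genes described as picked after their values were seen, genes that complete a count or median, and a few undetected genes. Promoters came from RefSeq (GRCm38.p6). Scripts were tested on simulated data. Python 3.11.15, numpy 2.4.6, pandas 2.3.3 and statsmodels 0.14.6 were used.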

Additional observations from a re-analysis of the deposited data

How the results depend on the processing

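The alternatives were 5 other scalings, 2 other floors, 3 other filters, 2 other ways to pick probe sets, and a 2-fold cutoff. The count of members at least 1.5-fold lower (3) became 7 when arrays were scaled to poly-A controls, where 58.7% of all genes were that low, and the median of the members became -1.01, still -0.31 from the median of all genes. It became 0 with a detection limit at the 75th percentile, which kept 4 members and none of Ebf2, Zfp423 or Gata2 by construction, and 0 at 2-fold. In the other alternatives it was 2 or 3, and the count higher was 0 in all. Ebf2, Gata2 and Zfp423, the 3 members at least 1.5-fold lower in the main setting, kept their sign wherever they had a value. They were picked for low ratios on these same 2 arrays, and Zfp423 passed the limit through the control array alone. A kept sign is therefore not independent support. Under poly-A scaling Gata6 went from 0.02 to -0.71 and Runx1 from 0.11 to -0.61, both then at least 1.5-fold lower. Runx1 went from 0.11 to -0.30 when its probe sets were averaged. Zfp423 was lost when both arrays had to reach the limit. No paired analysis was possible because each group holds 1 array. Signals near the detection limit bound what Ebf2, Zfp423, Zfp467 and Runx1 can show.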

Other observations

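Some other regulators also had probe sets that disagreed, as those of Runx1 did, which was common on these arrays. Ratios of both signs occurred in 44.4% of genes with exactly 3 detected probe sets, as Wwtr1 has. With exactly 5, as Nr2f2 has, 67.5% of genes showed them. The probe sets of Wwtr1 gave 2010 and 1046, 1228 and 1685, and 1049 and 1181. Those of Tle3, a corepressor that Runx proteins recruit, ranged from -0.59 on the brightest to 1.19 on a dim one, and those of Nr2f2, an orphan receptor of precursors, from -1.32 to 0.35. These genes were picked after their values were seen, and which transcripts the probe sets read was not analysed here.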
